A study of Mus musculus with 16 samples.

Results

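The 9 genes described here, Cs, Idh2, Idh3a, Idh3b, Ogdh, Dlst, Suclg1, Fh1 and Mdh2, encode enzymes of the tricarboxylic acid (TCA) cycle and were taken by symbol from the 55487 genes of the count table, in which all 9 were present and all 9 passed the filter on low counts. RNA was sequenced from the apex of mouse hearts 4 weeks after transverse aortic constriction (TAC), a surgery that narrows the aorta and makes the left ventricle pump against a raised pressure, or after a sham operation without the ligature. Mice were control (wild type, Ctrl) or carried a CRISPR/Cas9 knockout (KO) of Cardinal, a long noncoding RNA annotated as Gm12295, so that 16 libraries fell into 4 groups of 4, named Ctrl sham and Ctrl TAC for control mice and KO sham and KO TAC for knockout mice. Per the study's methods the mice were male, the labels give a body weight range and no age, and each label carried its own animal number, so each library was read as 1 mouse. The knockout was not described as restricted to a cell type, and the number of founder lines was not given in the sources used here.

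The TCA cycle runs in the mitochondrial matrix, where it oxidises the acetyl group of acetyl-CoA to carbon dioxide and passes the electrons to the respiratory chain as NADH and reduced flavin. The heart depends on it more than most organs, since nearly all of its ATP is made by oxidative phosphorylation and fatty acids are its main fuel. In the order of the cycle, Cs makes citrate from acetyl-CoA and oxaloacetate, Idh3a and Idh3b belong to the NAD-dependent isocitrate dehydrogenase, Ogdh and Dlst to the 2-oxoglutarate dehydrogenase complex, Suclg1 to succinyl-CoA synthetase, Fh1 hydrates fumarate to malate, and Mdh2 returns malate to oxaloacetate. Idh2 is the NADP-dependent isocitrate dehydrogenase of the same compartment, which supplies NADPH.

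Library totals ran from 53169437 to 79404714 counts, and counts from the mitochondrial genome made up 26.8% to 28.8% of a sham library and 21.9% to 27.0% of a TAC library, where 7 of the 8 TAC libraries, at 21.9% to 25.1%, lay below every sham library. The part of this shift in the results below was not tested. Cardinal lay between 3.24 and 3.86 CPM (counts scaled to library size) in the 4 Ctrl sham libraries, between 2.69 and 8.02 CPM in the 4 Ctrl TAC libraries and between 0.297 and 0.553 CPM in the 4 KO sham libraries. In 3 of the KO TAC libraries it was at 0.276 to 0.371 CPM, whereas the library labelled KO TAC 4 held 4.55 CPM, within the range of the control libraries and against its label. KO TAC comparisons of the members and of the gene lists are therefore also given without the library labelled KO TAC 4, those of the lists as an alternative added after seeing the data. The cardiomyocyte markers Myh6, Tnnt2, Tnni3, Actc1, Myl2, Myl3, Ryr2, Mb, Ttn and Pln were all detected and summed to between 51712 and 74048 CPM.

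Values for the genes are CPM after library scaling by the trimmed mean of M values (TMM), and comparisons between genes are in CPM per kilobase of exon. Exon length was counted over all annotated exons of a gene together, and the order of the genes depends on it. In plain CPM the Ctrl sham mean of Dlst, 561, lay above those of Idh3a at 500, Fh1 at 371 and Suclg1 at 280. On that per-length scale the Ctrl sham level was highest for Idh2 at 689 ± 36.3 (SD, n = 4), followed by Ogdh at 386 ± 14.5 and Mdh2 at 252 ± 14.5 CPM per kilobase. Cs and Idh3b came next at 195 ± 13.3 and 192 ± 11.1 CPM per kilobase and overlapped each other. Fh1 at 109 ± 7.05 and Idh3a at 98.6 ± 8.75 CPM per kilobase overlapped as well, as did the lowest pair, Suclg1 at 60.7 ± 4.52 and Dlst at 58.7 ± 3.69. The other neighbours in this order did not overlap between libraries. In all 4 groups Idh2, Ogdh and Mdh2 were the highest in that order, and Suclg1 and Dlst were the lowest pair.

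Cs, which encodes citrate synthase (ENSMUSG00000005683), lies on chromosome 10 of GRCm38 at 128337734 to 128362479 on the plus strand. Sham levels, for libraries 1 to 4 in order, were 1239.8, 1088, 1094 and 1077 CPM for Ctrl and 1094, 1116, 1103 and 1135 CPM for KO. Levels after TAC were 919, 912, 922 and 824 CPM for Ctrl and 801, 805, 793 and 841 CPM for KO. All 8 TAC libraries lay below all 8 sham libraries, and the lowest Ctrl TAC library overlapped KO TAC. Cs fell by 0.33 on the log2 scale in Ctrl TAC (SE 0.052, adjusted p = 0.000191), where its level fell by 20.5%, and by 0.46 in KO TAC against KO sham (SE 0.0521, adjusted p = 2.46e-06).

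Idh2 (ENSMUSG00000030541, chromosome 7, 80094846 to 80115392, minus strand) had sham levels of 1801, 1853, 1645 and 1829 CPM for Ctrl and 1831, 1817, 1768 and 1936 CPM for KO. Its Ctrl TAC levels of 1329, 1731, 1549 and 1414 CPM were the most scattered of the 9 genes on the log2 scale, and Ctrl TAC 2 lay among the sham libraries. In KO TAC it was at 1225, 1378, 1484 and 1329 CPM, below every sham library. Idh2 fell by 0.24 in Ctrl TAC (SE 0.0742, adjusted p = 0.0270) and by 0.44 in KO TAC against KO sham (SE 0.0743, adjusted p = 0.000156). The Ctrl TAC call was lost in 5 of the 16 fits that left out a library, namely without Ctrl sham 1, Ctrl sham 2, Ctrl sham 4, Ctrl TAC 1 or Ctrl TAC 4, with adjusted p-values of 0.0611 to 0.0917.

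Of the NAD-dependent isocitrate dehydrogenase, Idh3a (ENSMUSG00000032279, chromosome 9, 54586334 to 54604661, plus strand) encodes the catalytic alpha subunit. Ctrl hearts held 563, 460.2, 497 and 481 CPM after sham and 404, 412, 419 and 393 CPM after TAC. KO hearts held 469, 493, 479 and 492 CPM after sham and 364, 357, 363 and 396 CPM after TAC. No TAC library reached a sham library, and the library labelled KO TAC 4 lay within the Ctrl TAC range. Idh3b (ENSMUSG00000027406, chromosome 2, 130279309 to 130284547, minus strand), a regulatory subunit of the same enzyme, had sham levels of 701, 643, 613 and 675 CPM for Ctrl and 655, 657, 668 and 680.3 CPM for KO. Its levels of 568, 551, 597 and 537 CPM in Ctrl TAC lay above those of 497, 516, 467 and 492 CPM in KO TAC, with no overlap. Idh3a fell by 0.30 in Ctrl TAC (adjusted p = 0.000945) and by 0.39 in KO TAC (adjusted p = 3.31e-05), each against its own sham group. For Idh3b the falls were 0.22 (adjusted p = 0.00374) and 0.43 (adjusted p = 3.07e-06), in the same order. Idh3b shares 5 exon bases with Nop56 on the opposite strand, 0.146% of its exon length.

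The 2-oxoglutarate dehydrogenase complex was covered by Ogdh (ENSMUSG00000020456, chromosome 11, 6291633 to 6356642, plus strand), its thiamine-dependent decarboxylase, and by Dlst (ENSMUSG00000004789, chromosome 12, 85110833 to 85134845, plus strand), its succinyltransferase core. For Ogdh the Ctrl hearts held 2218, 2040.1, 2098 and 2064 CPM after sham and 1754, 1900.5, 1709.5 and 1669 CPM after TAC, and the KO hearts 2058, 2088, 1978 and 2104 CPM after sham and 1601, 1528, 1717 and 1616 CPM after TAC. For Dlst the Ctrl hearts held 608, 523, 562 and 553 CPM after sham and 511, 501, 491 and 473 CPM after TAC, and the KO hearts 545, 573, 555 and 547 CPM after sham and 463, 435, 441 and 455 CPM after TAC. For both genes every TAC library lay below every sham library. Dlst also separated KO TAC from Ctrl TAC, whereas Ogdh overlapped between these groups. Ogdh fell by 0.26 in Ctrl TAC (adjusted p = 0.00154) and by 0.35 in KO TAC (adjusted p = 4.4e-05), and Dlst by 0.18 (adjusted p = 0.0104) and 0.31 (adjusted p = 7.29e-05).

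Suclg1 (ENSMUSG00000052738, chromosome 6, 73248382 to 73276911, plus strand) encodes the alpha subunit that the ADP-forming and the GDP-forming succinyl-CoA synthetase share. In Ctrl hearts it stood at 311, 269, 265 and 276 CPM after sham and at 227, 215, 241 and 206 CPM after TAC. In KO hearts it stood at 271, 275, 276 and 289.7 CPM after sham and at 200.2, 210.0, 179 and 198 CPM after TAC. The sham and TAC libraries were separate, and KO TAC 2 lay within the Ctrl TAC range. Suclg1 had the largest fall of the 9 genes in both comparisons of TAC with sham, by 0.33 in Ctrl TAC (SE 0.0617, adjusted p = 0.000836) and by 0.50 in KO TAC (SE 0.0618, adjusted p = 6.56e-06). In KO TAC its level thus fell by 29.2%.

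Fh1 (ENSMUSG00000026526, chromosome 1, 175600374 to 175625635, minus strand), fumarase, had sham levels of 407, 362, 356 and 361 CPM for Ctrl and 368, 385, 377 and 396 CPM for KO. After TAC it had 305, 314, 338 and 314 CPM for Ctrl and 268, 293, 259 and 265 CPM for KO. The sham libraries, the Ctrl TAC libraries and the KO TAC libraries formed 3 ranges that did not overlap. Mdh2 (ENSMUSG00000019179, chromosome 5, 135778480 to 135790398, plus strand), mitochondrial malate dehydrogenase, had sham levels of 974, 879.7, 856 and 885 CPM for Ctrl and 906, 912, 912 and 900.3 CPM for KO. Its levels after TAC were 809, 790.4, 849 and 774 CPM for Ctrl and 713, 774, 713 and 717 CPM for KO. Its ranges were separate too, although the highest KO TAC library and the lowest Ctrl TAC library were less than 1 CPM apart. Fh1 fell by 0.22 in Ctrl TAC (adjusted p = 0.00618) and by 0.49 in KO TAC (adjusted p = 1.74e-06). Mdh2 had the smallest fall in Ctrl TAC, by 0.16 (adjusted p = 0.0284), and fell by 0.32 in KO TAC (adjusted p = 6.41e-05). The Ctrl TAC call of Mdh2 was lost without Ctrl sham 1, Ctrl TAC 1, Ctrl TAC 2 or Ctrl TAC 4, with adjusted p-values of 0.0510 to 0.103.

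**Figure D1:**
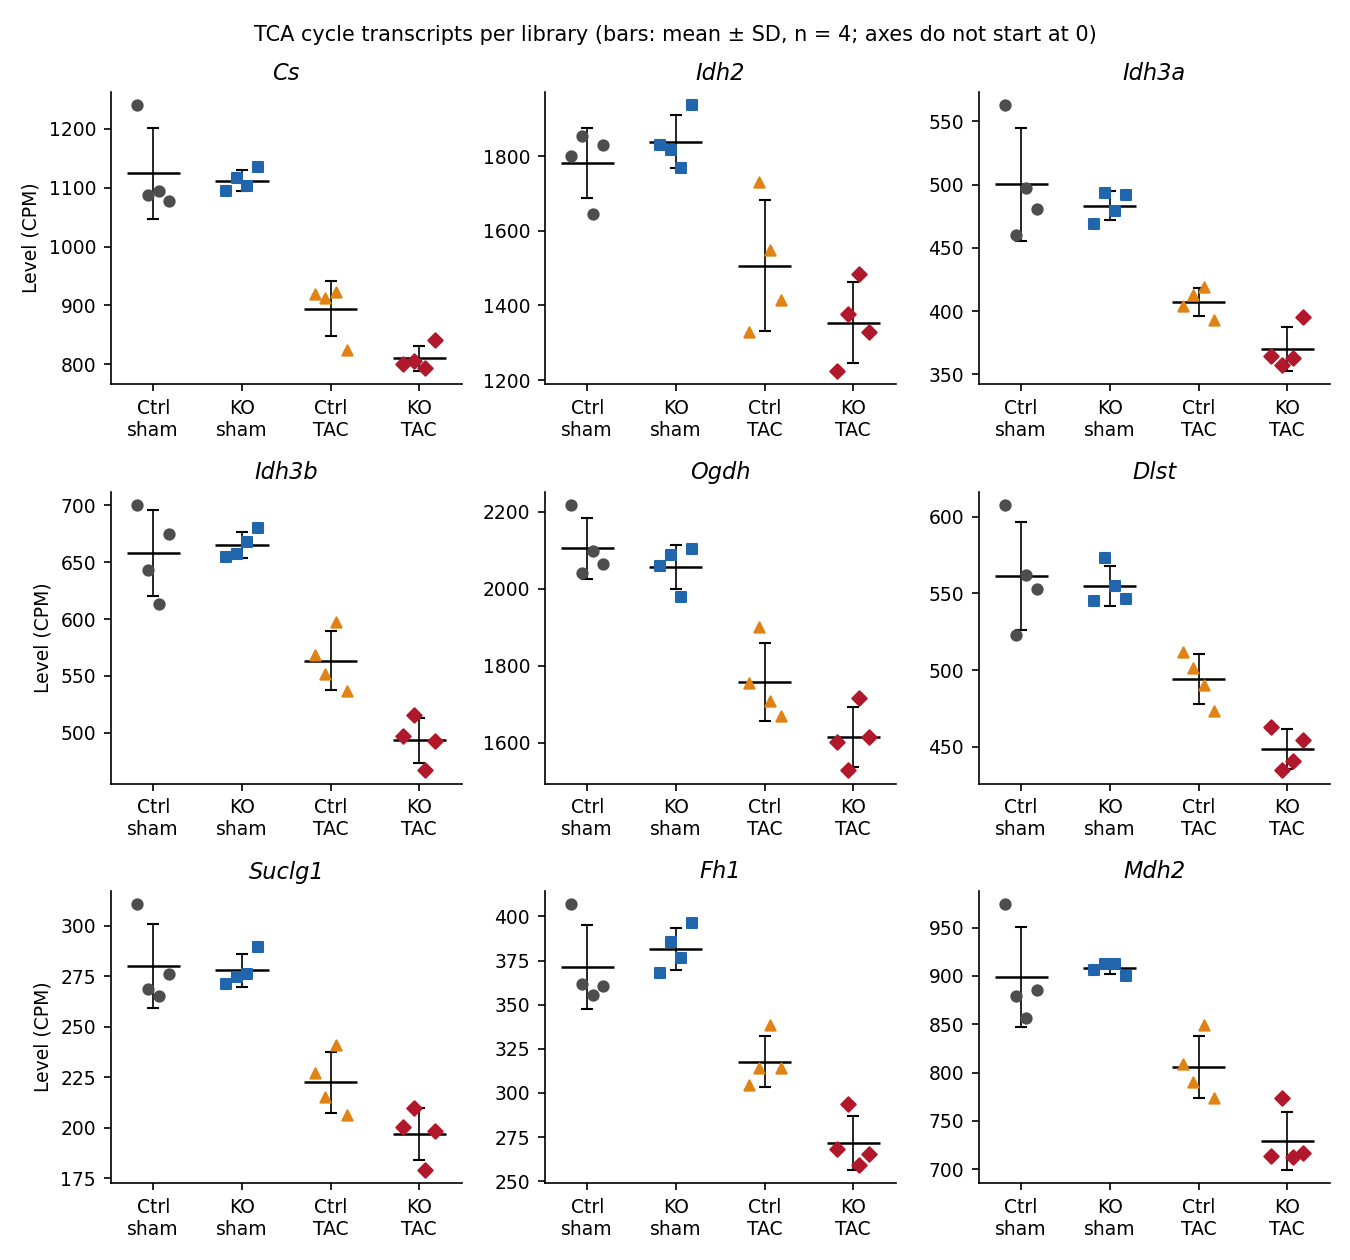
Level of each of the 9 TCA cycle transcripts in CPM (y axis, which does not start at 0) in the 4 libraries of each group (x axis), with 1 point per library, a line at the group mean and bars of 1 SD. Except for Idh2, where Ctrl TAC 2 at 1731 CPM lies among the sham libraries, all 8 TAC libraries lie below all 8 sham libraries.

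The first comparison asked how these transcripts responded to pressure overload in control hearts. All 9 fell in Ctrl TAC against Ctrl sham, where 9.60% of the 18275 genes tested were called lower and 10.4% higher, by edgeR's quasi-likelihood test at an adjusted p under 0.05. The median log2 fold change of the 9 was -0.24, between -0.33 for Suclg1 and -0.16 for Mdh2, while the median over all genes tested was 0.0043. In 8 of the 9, Idh2 being the exception, the TAC and sham libraries did not overlap, against 9.97% of all genes that were lower without overlap. The 9 counts together took 1.08% to 1.12% of the counts from nuclear genes in Ctrl sham and 0.908% to 1.01% in Ctrl TAC. As a share of all counts, mitochondrial genes included, the ranges were 0.789% to 0.799% and 0.693% to 0.786%. The animal numbers of Ctrl sham 1 to 4 start with 36, 32, 32 and 33, and those of Ctrl TAC with 34, 25, 25 and 25. No such start is shared, so number series and surgery cannot be told apart in this comparison. With a term for the numbers that start with 25, 7 of the 9 were called, with a median of -0.26. Of the 18275 genes tested, that fit called 2479, 1175 of them lower.

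In knockout hearts the same question was put to KO TAC against KO sham. All 9 fell, against 16.5% of all genes called lower and 17.8% called higher. The median log2 fold change was -0.43, from -0.50 for Suclg1 to -0.31 for Dlst, with -0.0039 over all genes, and no member overlapped between the groups, against 16.6% of all genes that were lower without overlap. Without the library labelled KO TAC 4 the median was also -0.43 and all 9 were called. The share of nuclear counts taken by the 9 was 1.07% to 1.11% in KO sham and 0.853% to 0.901% in KO TAC. The animal numbers of KO sham 1 to 4 start with 33, 33, 33 and 34, and those of KO TAC with 34, 34, 34 and 25. Only the start 34 is shared, by KO sham 4 and KO TAC 1 to 3. Number series and surgery can therefore hardly be told apart here either.

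Without load, the knockout was compared with control in sham hearts. None of the 9 was called (0 of 9 by edgeR, 0 of 9 at an unadjusted p under 0.05 and 0 of 9 by DESeq2), and among all genes tested edgeR called 0.00% and DESeq2 called 3 genes, with 479 genes at an unadjusted p under 0.05 in edgeR. The log2 fold changes ran from -0.05 for Idh3a to 0.04 for Idh2, with SEs of 0.048 to 0.0742. The Ctrl sham and KO sham libraries overlapped for all 9 genes, whereas 0.837% of all genes were lower and 0.941% higher without overlap. These values do not show that the levels were equal, only that no difference was detectable with 4 libraries a group.

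Under load, KO TAC was compared with Ctrl TAC. Fh1 fell by 0.23 (SE 0.054, adjusted p = 0.0346), or 14.5% in level, and Idh3b fell by 0.19 (SE 0.05, adjusted p = 0.0472), or 12.5%. These were 2 of 9 members, where 1.32% of all genes were called lower and 1.36% higher. These shares rest on 489 genes called, a count that ran from 63 without Ctrl TAC 2 to 733 without Ctrl TAC 4 over the fits that left out a library. The other 7 had log2 fold changes of -0.12 to -0.18 with adjusted p-values of 0.115 to 0.277, so that all 9 values were negative, with a median of -0.14 against -0.0017 over all genes. The libraries did not overlap for Idh3b, Mdh2, Fh1 and Dlst, against 4.99% of all genes that were lower without overlap.

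The calls of Fh1 and Idh3b depended on the libraries used. Over the 16 fits that left out a library, Fh1 was called in 10 and lost without KO sham 2, Ctrl TAC 2, Ctrl TAC 3, KO TAC 1, KO TAC 3 or KO TAC 4, and Idh3b was called in 3. Without the library labelled KO TAC 4, Fh1 was at -0.22 with an adjusted p of 0.0695 and Idh3b at -0.19 with an adjusted p of 0.083, and the median of the 9 was -0.16. In that fit 0 of the 9 were called, against 438 of the 18494 genes tested, 202 of them lower. Within the animal numbers that start with 34, the 3 KO TAC libraries were set against the only Ctrl TAC library. The median difference of the 9 was -0.16 on the log2 scale, from -0.21 for Suclg1 to 0.03 for Idh2. Within the numbers that start with 25, the only KO TAC library was KO TAC 4, which held Cardinal against its label. Against the mean of the 3 Ctrl TAC libraries of that series, KO TAC 4 had a median difference of -0.15, from -0.28 for Fh1 to -0.04 for Idh3a. In each series 1 side was a single library, and these differences were not set beside those of all genes. With the numbers that start with 25 as a term in the model, 0 of the 9 were called, and Fh1 had an adjusted p of 0.153. That fit called 12 of the 18275 genes tested, 6 of them lower, so a count of 0 says little about the 9.

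The interaction asks whether the response to load differed between the genotypes. None of the 9 was called (0 of 9 by edgeR and 0 of 9 by DESeq2), against 0.0109% of all genes, or 2 genes. All 9 estimates were negative, from -0.27 (SE 0.0764, adjusted p = 0.238) for Fh1 to -0.09 (SE 0.0731, adjusted p = 0.700) for Ogdh, with a median of -0.16. Fh1, Idh3b and Mdh2 were the 3 with an unadjusted p under 0.05, against 2024 of the 18275 genes tested. The larger falls in KO TAC than in Ctrl TAC are therefore not shown to differ between the genotypes for any single member.

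**Figure D2:**
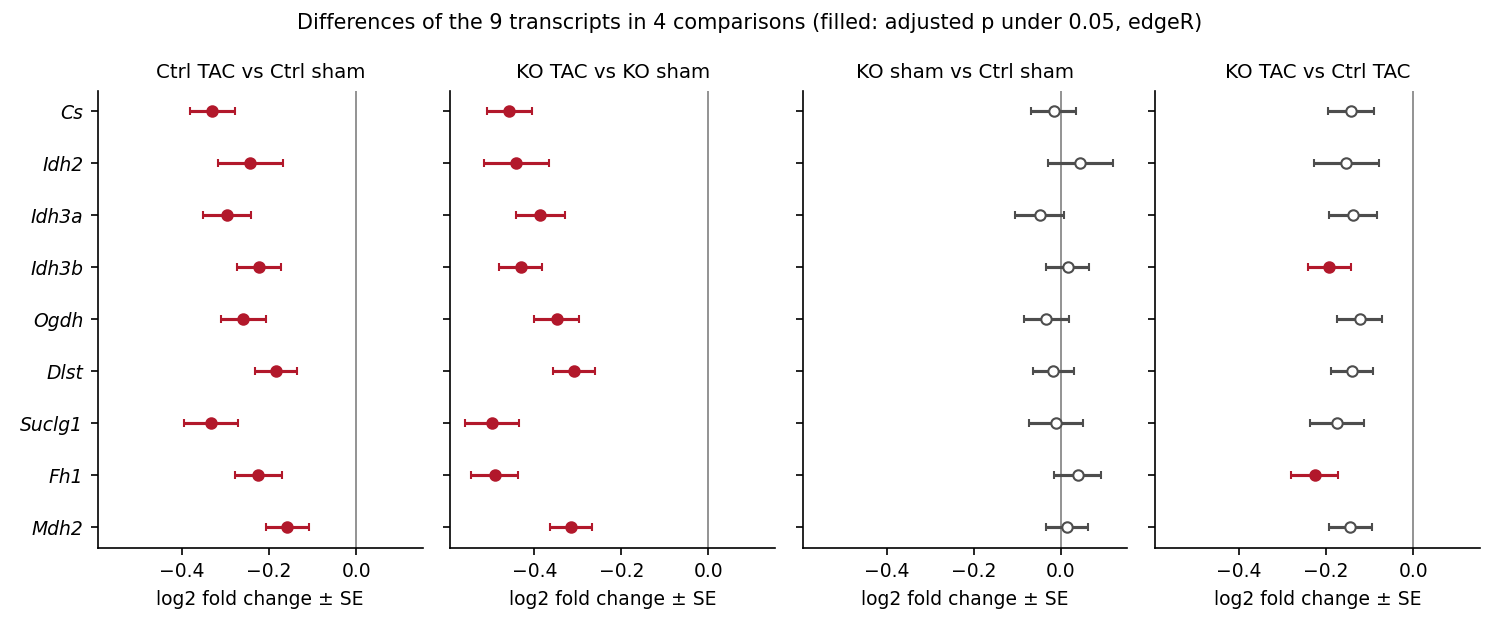
Fitted log2 fold change (x axis) with bars of 1 SE for each of the 9 transcripts (y axis) in 4 comparisons, with filled points where the adjusted p was under 0.05. All 9 are filled and below 0 in both comparisons of TAC with sham, none is filled between the sham groups, and Fh1 and Idh3b are filled between the TAC groups.

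Because the 9 moved together, the promoters that RefSeq gives for them (GRCm38.p6, 250 bases before to 50 after the transcription start) were searched on both strands for binding motifs of factors known to act on mitochondrial genes. RefSeq windows were at hand for 8 of the 9 genes, with 13 windows in all, 6 of them for Ogdh, and none was used for Idh3a. The motif of the estrogen-related receptors was searched as AAGGTCA, that of nuclear respiratory factor 1 (NRF1) as GCGCATGCG and that of the ETS family as ACCGGAAG. Each was found in 1 of the 8 genes, against 5.38%, 1.95% and 2.60% of all 27025 genes with such windows and 4.16%, 3.60% and 4.75% of the 12202 among them that were tested in these hearts. Of 7 other subunits of the cycle's enzymes with windows, Sdhd held the estrogen-related receptor motif, Sdhb, Sdhd and Idh3g held the ETS motif, and 0 held that of NRF1. The matches are shown 5′ to 3′ along the gene with up to 20 bases on each side and the motif, or its reverse complement TGACCTT or CTTCCGGT, in capitals.
Ogdh, estrogen-related receptor motif on the opposite strand, chr11:6292145-6292189, plus strand: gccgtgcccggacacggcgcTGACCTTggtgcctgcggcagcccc
Ogdh, NRF1 motif, chr11:6292523-6292571, plus strand: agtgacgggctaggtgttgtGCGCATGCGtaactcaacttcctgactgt
Dlst, ETS motif on the opposite strand, chr12:85110814-85110852, plus strand: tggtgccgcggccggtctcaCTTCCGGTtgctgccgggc
A match is only a stretch of letters in these windows.

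Other subunits of the cycle's enzymes, namely Idh3g, Dld, Sucla2, Suclg2, Sdha, Sdhb, Sdhc and Sdhd, were described for comparison. In Ctrl TAC 7 of these 8 fell, with a median log2 fold change of -0.30, and Sdhd, a membrane anchor of succinate dehydrogenase, did not pass the test at -0.15 (adjusted p = 0.0747). In KO TAC against KO sham all 8 fell, with a median of -0.48. Of these 8, the largest fall in KO TAC was that of Sdha, the flavoprotein of succinate dehydrogenase, from 1427, 1457, 1400.0 and 1547 CPM in KO sham to 898, 905, 886 and 914 CPM in KO TAC, with no overlap. Sdha fell by 0.69 on the log2 scale there (adjusted p = 3.47e-08) and by 0.44 in Ctrl TAC (adjusted p = 1.45e-05). Sdhc, the other membrane anchor, fell by 0.50 in Ctrl TAC (adjusted p = 5.9e-05).

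Between KO TAC and Ctrl TAC, 3 of these 8 were called lower, namely Sdha by 0.29 (adjusted p = 0.0141), Sdhb, the iron-sulfur subunit of succinate dehydrogenase, by 0.21 (adjusted p = 0.0296) and Dld, the dihydrolipoamide dehydrogenase that the 2-oxoglutarate and pyruvate dehydrogenase complexes share, by 0.19 (adjusted p = 0.0338). The median of the 8 was -0.17. Without the library labelled KO TAC 4, Sdha and Dld were called and Sdhb was not (adjusted p = 0.0573), and all 8 were still called against KO sham. Between the sham groups 0 of the 8 were called, with 0 at an unadjusted p under 0.05. In the interaction 0 were called by edgeR, with 5 at an unadjusted p under 0.05, against 2024 of the 18275 genes tested.

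Around the cycle, the directions were mixed. Of 5 cytosolic counterparts, Idh1 and Mdh1 fell in Ctrl TAC, by 0.36 (adjusted p = 0.000242) and 0.27 (adjusted p = 0.00103), and the same genes fell in KO TAC, by 0.38 and 0.43, while Acly, the cytosolic citrate-cleaving enzyme, Aco1 and Me1 did not pass the test in either comparison. Of 12 enzymes and carriers by which intermediates enter or leave the cycle, 8 fell and 1 rose in Ctrl TAC, and 8 fell and 3 rose in KO TAC. The falls included Got1, the cytosolic aspartate aminotransferase, by 0.33 in Ctrl TAC and by 0.60 in KO TAC. Those that rose were Me2, a mitochondrial malic enzyme, by 0.32 in Ctrl TAC (SE 0.103, adjusted p = 0.0331) and by 0.51 in KO TAC (SE 0.103, adjusted p = 0.000738), and, in KO TAC against KO sham, Slc25a1, the mitochondrial citrate carrier, by 0.70 (SE 0.128, adjusted p = 0.000348) and Slc25a10, the dicarboxylate carrier, by 0.26 (adjusted p = 0.0342). Slc25a1 was at 0.15 in Ctrl TAC (adjusted p = 0.449), and its interaction of 0.54 did not pass the test (adjusted p = 0.279). Without the library labelled KO TAC 4, 7 of the 12 fell and 3 rose in KO TAC against KO sham, with Slc25a13, an aspartate and glutamate carrier, no longer called (adjusted p = 0.116), and Idh1 and Mdh1 were called as before.

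The pathways on either side of the cycle were also counted. Of 14 genes of fatty acid oxidation, which supplies most of the acetyl-CoA in heart, 13 fell in Ctrl TAC and 14 in KO TAC, with median log2 fold changes of -0.41 and -0.67, each more negative than that of the 9 cycle genes. The largest was that of Acaa2, the mitochondrial thiolase, which fell by 0.66 in Ctrl TAC and by 1.16 in KO TAC. Of 7 core subunits of complex I, which takes up the NADH, 6 fell in Ctrl TAC and 7 in KO TAC, with medians of -0.26 and -0.48. Between KO TAC and Ctrl TAC, 7 of the 14 and 2 of the 7 were called lower, with medians of -0.29 and -0.20. Without the library labelled KO TAC 4 these counts were 4 of the 14 and 1 of the 7, with medians of -0.29 and -0.20, while against KO sham all 14 and all 7 were called lower.

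**Figure D3:**
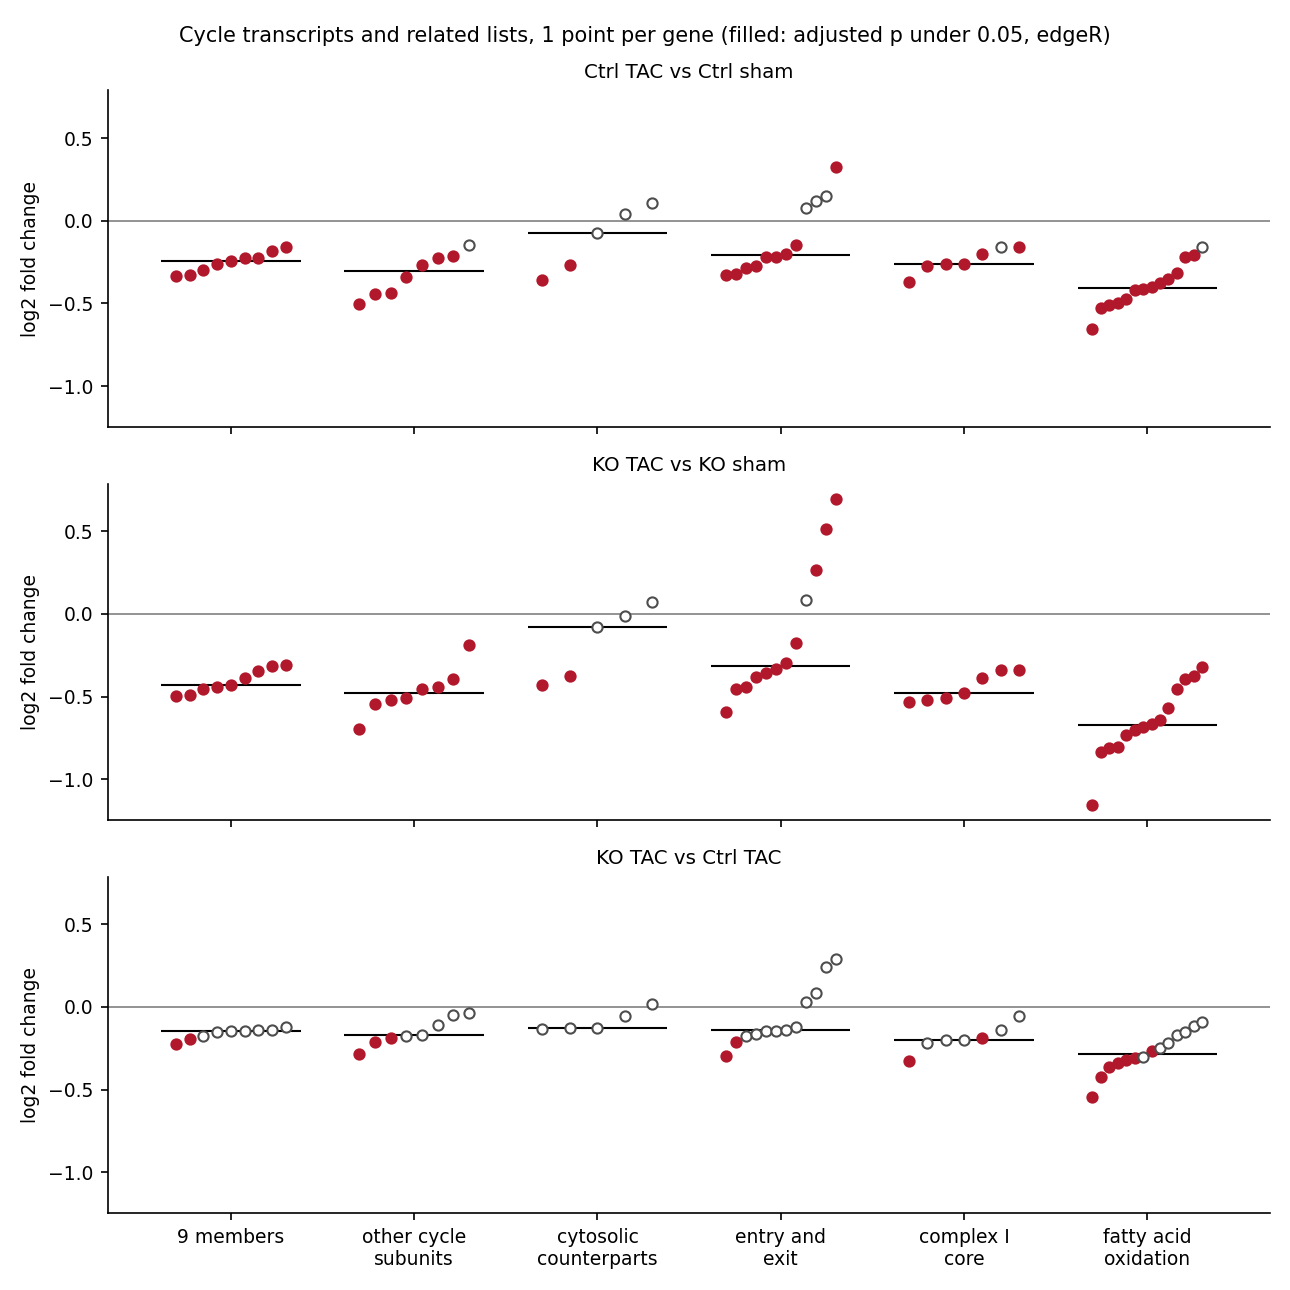
Fitted log2 fold change (y axis) of each gene in 6 lists (x axis), with 1 point per gene, filled where the adjusted p was under 0.05, and a line at the list's median, for 3 comparisons. The 9 members lie between -0.50 and -0.31 in KO TAC against KO sham, the fatty acid oxidation genes reach -1.16, and Me2, Slc25a1 and Slc25a10 lie above 0.

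The ratios between partner transcripts within a library do not depend on library scaling, and 6 were compared in 4 comparisons by the exact two-sided permutation test, whose smallest p with 4 against 4 libraries is 0.0286. Of the 24 tests 0 passed at an adjusted p under 0.05, and 5 reached the smallest unadjusted p (adjusted p = 0.137). At least 14 of the 24 would have had to reach that smallest p together for any to pass, so the adjusted values say little, and the ratios are given as a description. In length-scaled levels Idh3b to Idh3a was 1.95 and 2.04 after sham in Ctrl and KO and 2.05 and 1.98 after TAC, and Dlst to Ogdh ran from 0.152 to 0.161 over the group means. Suclg2 to Sucla2, the GDP-forming over the ADP-forming beta subunit that pairs with Suclg1, was 0.247, 0.259, 0.249 and 0.265 in Ctrl sham and 0.245, 0.246, 0.246 and 0.256 in KO sham. It was 0.215, 0.230, 0.234 and 0.229 in Ctrl TAC and 0.238, 0.238, 0.239 and 0.236 in KO TAC, so each TAC group lay below its sham group, and KO TAC above Ctrl TAC, without overlap. Mdh1 to Mdh2, the cytosolic over the mitochondrial malate dehydrogenase, was 2.466 and 2.491 after sham in Ctrl and KO and 2.284 and 2.301 after TAC, also without overlap between TAC and sham. Each of these separations holds without the library labelled KO TAC 4 as well, since a left-out library cannot add overlap.

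In bulk tissue, fewer cells of a type and less RNA per cell cannot be told apart, so the cell type markers were read beside these results. The 10 cardiomyocyte markers summed to 65128 to 74048 CPM in Ctrl sham, 66603 to 71929 in KO sham, 58647 to 63271 in Ctrl TAC and 51712 to 53702 CPM in KO TAC. Of the 10, 5 were called lower in Ctrl TAC and 7 in KO TAC, each against its sham group, and 2, Myh6 and Ryr2, were called lower in KO TAC against Ctrl TAC. The 9 cycle transcripts summed to 11.7% to 12.5% of that cardiomyocyte sum in Ctrl sham, 11.4% to 12.5% in KO sham, 11.1% to 11.6% in Ctrl TAC and 11.7% to 12.2% in KO TAC. This scale depends on Myh6, which made up 32.5% to 37.6% of the cardiomyocyte sum over the sham libraries, 30.1% to 34.7% in Ctrl TAC and 28.2% to 29.9% in KO TAC. Of the sum of the other 9 markers, an alternative added after seeing the data, the cycle transcripts were 18.7% to 18.9% in Ctrl sham, 17.9% to 19.4% in KO sham, 16.4% to 17.7% in Ctrl TAC and 16.5% to 17.0% in KO TAC. With Myh6 in the sum KO TAC lay within the range of the sham libraries and above Ctrl TAC, whereas without it every TAC library lay below every sham library and KO TAC lay within the Ctrl TAC range.

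The sum of the 10 fibroblast markers moved the other way, at 1346 to 1559 CPM in Ctrl sham, 1409 to 1468 in KO sham, 1813 to 2392 in Ctrl TAC and 2605 to 2844 CPM in KO TAC. Of the 10, 5 were called higher in Ctrl TAC, 9 in KO TAC and 2 in KO TAC against Ctrl TAC. Leaving out KO TAC 4 made the last 2 of these counts 8 and 1. Postn, Col3a1, Col1a1 and Col1a2 rose most. Gsn, the highest of the 10 in Ctrl sham at a mean of 762 CPM, did not rise. It was at -0.09 on the log2 scale in Ctrl TAC and at -0.01 in KO TAC, and was called in neither. The 10 macrophage markers summed to 213 to 286 CPM over the sham libraries and to 306 to 432 CPM over the TAC libraries, with 6 called higher in Ctrl TAC and 9 in KO TAC. In KO TAC against Ctrl TAC 0 were called higher and 1 lower, also without KO TAC 4. The marker called lower was Cd163, with means of 30.1 CPM in Ctrl TAC and 19.7 CPM in KO TAC. The 10 endothelial markers ranged from 799.6 to 985 CPM over all 16 libraries. The 10 smooth muscle and pericyte markers summed to 1188 to 1338 CPM over the sham libraries and to 1011 to 1167 CPM over the TAC libraries, without overlap. Of these, 2 were called higher and 2 lower in Ctrl TAC, and 3 higher and 2 lower in KO TAC. The 2 called lower were Abcc9 and Smtn in both comparisons, so the lower sum does not speak for each marker. Mean Abcc9 was 415 CPM in Ctrl sham, 266 in Ctrl TAC, 381 in KO sham and 222 in KO TAC. Mean Smtn was 153, 116, 150 and 107 CPM in the same order. The 6 atrial markers, of which Nppa and Myl4 passed the filter on low counts, summed to 91.1 to 192 CPM over the sham libraries, 504 to 1581 CPM in Ctrl TAC and 1987 to 2538 CPM in KO TAC. Nppa, the atrial natriuretic peptide gene, which a loaded ventricle also expresses, rose by 2.98 on the log2 scale in Ctrl TAC (adjusted p = 5.01e-05) and by 3.99 in KO TAC (adjusted p = 2.09e-06). No cardiomyocyte, fibroblast, macrophage, endothelial or smooth muscle marker had a group mean under 0.1 CPM. What part these shifts have in the falls of the cycle transcripts was not tested.

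**Figure D4:**
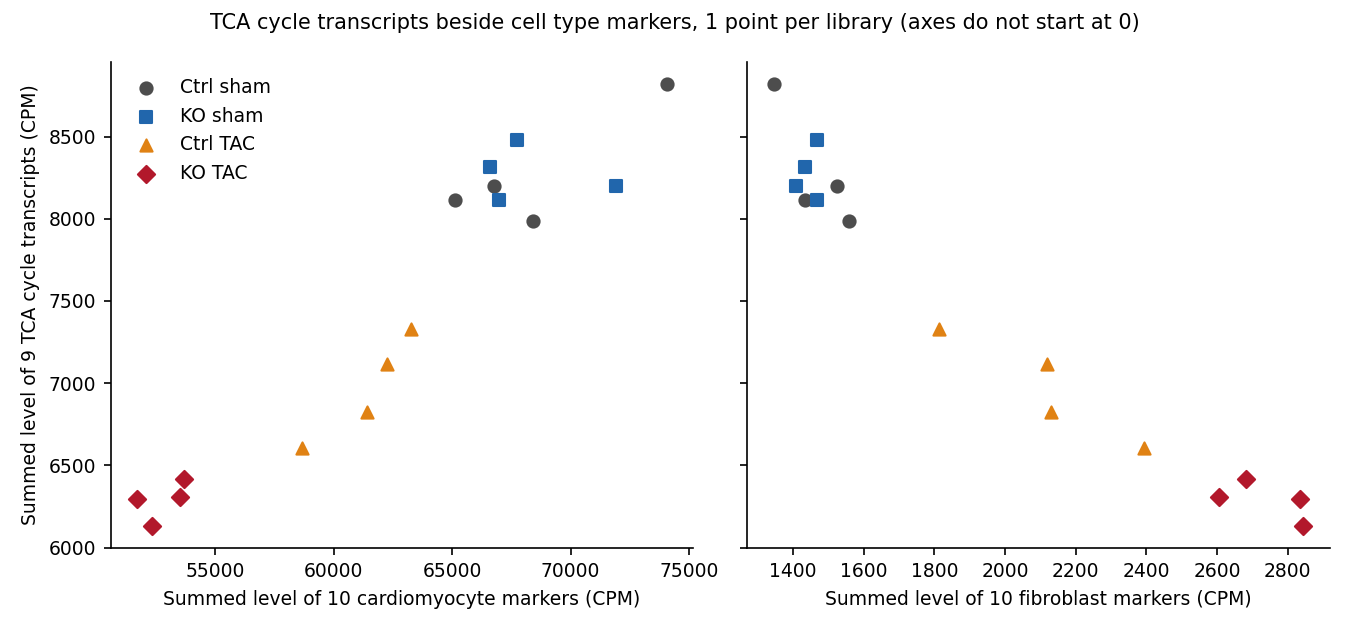
Summed level of the 9 TCA cycle transcripts (y axis, CPM) against the summed level of 10 cardiomyocyte markers (left x axis, CPM) and of 10 fibroblast markers (right x axis, CPM), with 1 point per library and axes that do not start at 0. The 4 KO TAC libraries lie at 51712 to 53702 CPM of cardiomyocyte markers and 2605 to 2844 CPM of fibroblast markers, at the end opposite to the sham libraries.

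The 9 transcripts varied alike over the 16 libraries. The Pearson correlation of each with the mean of the 9 was between 0.892 for Idh2 and 0.990 for Cs. For this mean the log2 CPM of each gene was centred and divided by its SD. The correlation is a description only, since the points share libraries and groups and each gene is part of the mean. Among the 10541 genes outside the lists used here with a mean level of at least 2 log2 CPM, the 5 most like that mean were Atp5a1, the alpha subunit of ATP synthase (r = 0.994), Mut, methylmalonyl-CoA mutase, which delivers succinyl-CoA to the cycle (r = 0.993), Ivd and Mccc1, both of leucine breakdown (r = 0.991 each), and Sod2, the manganese superoxide dismutase of the matrix (r = 0.991). Relative to the Ctrl sham mean, the mean log2 level of the 9 was -0.32 to -0.20 in the 4 Ctrl TAC libraries and -0.43 to -0.39 in the 4 KO TAC libraries, so these groups did not overlap on the mean. The library labelled KO TAC 4, at -0.40, lay among the other KO TAC libraries.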

How the data were processed

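Poly(A)-selected libraries from the heart apex of 16 mice were sequenced as paired reads of 150 bases. The authors deposited a table of raw counts per Ensembl gene for the whole series. The submitters' processing notes name cutadapt 2.3, FastQC, HISAT2 2.1.0, edgeR 3.26.1 and the build GRCm38. The counting program, the annotation and the use of strand are not given in the sources used here. Symbols and positions came from GENCODE M21 (GRCm38), which held 55227 of the 55487 gene IDs.

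Groups came from the labels. Genes were kept with filterByExpr (18275), scaled by TMM and tested with edgeR 4.0.16 in R 4.3.3 (glmQLFit with robust estimation, glmQLFTest), with 1 mean per group over all 16 libraries, Benjamini-Hochberg adjustment over all genes tested and calls at an adjusted p under 0.05. The SE is the size of the log2 fold change over the root of F. The fit was tested on simulated counts. Ratios were compared by exact permutation tests over all relabellings (Python 3.11.15) with adjustment over the 24 tests. With totals of 53169437 to 79404714 counts, the least counted member still held 11671 counts in its lowest library. Counting error was not compared with the spread between mice.

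The members and lists were chosen with earlier results of these data known. The list of other cycle subunits is not complete, as a result of it is not reported here. By the naming rule all 9 members and the other subunits of their enzymes may be named. Of each other list, up to 2 called genes that rose most and 2 that fell most per comparison may be named. Myh6, Ryr2, Nppa, Myl4, Aco1, Me1, Acly, Slc25a10 and Slc25a13 were named after their values were seen. So were the markers Gsn, Postn, Col3a1, Col1a1, Col1a2, Abcc9, Smtn and Cd163. The 5 most alike genes were ranked by Pearson's r with the mean of the members' log2 CPM, each member first centred and divided by its SD. Alternatives were RLE scaling, nuclear genes alone, DESeq2 1.42.0, other filters on low counts, a threshold of 0.01, animal-number terms, the 8 libraries compared alone, and leaving out each library or both Ctrl TAC 2 and KO TAC 4.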

Additional observations from a re-analysis of the deposited data

Results flagged for a closer look

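In groups of 4, a library was singled out where its gap to the nearest other library, divided by the range of the group on the log2 scale, was above Dixon's critical value. Of 64 such tests on the levels and ratios, 5 were above it, and chance gives about 1 in 20. Ctrl sham 1 was high for Cs at 1239.8 CPM and for Fh1 at 407 CPM. Ctrl TAC 4 was low for Cs at 824 CPM, and KO TAC 2 was high for Mdh2 at 774 CPM. The ratio of Suclg2 to Sucla2 was high in KO sham 4 at 0.256.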

How the results depend on the processing

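In KO TAC against KO sham all 9 members stayed called in each alternative tried, and in the sham comparison and the interaction 0 were called in each one tried. In Ctrl TAC against Ctrl sham the directions held, 9 of the 9 were called with RLE scaling, nuclear genes alone and DESeq2, and Idh2, Dlst or Mdh2 lost their calls in some alternatives. The count of 2 in KO TAC against Ctrl TAC became 4 with DESeq2 (Dlst and Mdh2 added), 1 with animal numbers that start with 33 as a term, and 0 without a filter on low counts, at a threshold of 0.01, with a term for the series of numbers that start with 25, in the 8 libraries alone and without both Ctrl TAC 2 and KO TAC 4. Leaving out single libraries gave counts from 0 to 2, with 0 without KO sham 2, Ctrl TAC 2, Ctrl TAC 3, KO TAC 1, KO TAC 3 or KO TAC 4, and 1 without Ctrl sham 2, Ctrl sham 4, KO sham 1, KO sham 3, KO sham 4, Ctrl TAC 1 or KO TAC 2; the cause was not tested. Over all genes, the same comparison gave 489 calls, 1183 with DESeq2, 12 with the series term, 19 at a threshold of 0.01, 285 without a filter on low counts, 154 in the 8 libraries alone and 109 without both Ctrl TAC 2 and KO TAC 4. It gave 324 without KO sham 2, 63 without Ctrl TAC 2 and 190 without Ctrl TAC 3. Of the KO TAC libraries, leaving out KO TAC 1 gave 258, KO TAC 2 gave 152, KO TAC 3 gave 84 and KO TAC 4 gave 438. In Ctrl TAC against Ctrl sham 3652 genes were called and 2076 at a threshold of 0.01. The interaction gave 2 calls, 132 with DESeq2 and 0 to 18 without single libraries, with 18 without Ctrl TAC 4, and the sham comparison 0 calls and at most 3, with DESeq2.

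Signs turned for uncalled differences between the sham groups alone. Leaving out single libraries gave ranges, with the upper end in each from the fit without Ctrl sham 1, of -0.0366 to 0.0342 log2 for Cs, -0.0868 to 0.0129 for Idh3a, -0.0170 to 0.0475 for Idh3b, -0.0496 to 0.0238 for Dlst, -0.0373 to 0.0423 for Suclg1 and -0.0085 to 0.0554 for Mdh2. With animal numbers that start with 33 as a term, Cs was at 0.0146 and Suclg1 at 0.0154. With a library left out, the exact test of the ratios is still bound by its smallest p. Passing after adjustment again needs many tests at that p together, so the test says little of their stability. No paired analysis was possible because the labels give animal numbers and no replicate numbers that groups share.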

Other observations

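Within groups, the mean deviation of the 9 transcripts went with the marker sums in some libraries and against them in others. In Ctrl sham 1 all 9 lay above their group means, by 0.11 on average on the log2 scale, with the highest cardiomyocyte marker sum, 74048 CPM, and the lowest fibroblast marker sum, 1346 CPM, of the 16. In Ctrl TAC 4 all 9 lay below their group means, by 0.07 on average, with the lowest cardiomyocyte sum, 58647 CPM, and the highest fibroblast sum, 2392 CPM, of its group. In KO sham 1, by contrast, 8 of the 9 lay below their group means, although it had the highest cardiomyocyte sum, 71929 CPM, and the lowest fibroblast sum, 1409 CPM, of its group. KO TAC 2 had the highest mean of the 9 in its group, 0.02 above the group mean, with the lowest cardiomyocyte sum, 51712 CPM. In Ctrl TAC 3, 7 of the 9 lay above their group means, by 0.05 on average over the 9, with sums of 62262 and 2118 CPM that were not at an end of its group.

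Of the 9 members, Idh2 had the widest spread in the TAC groups on the log2 scale, with CPM between 1329 and 1731 in Ctrl TAC and between 1225 and 1484 in KO TAC. Of the other cycle subunits, Sdhc varied as much in Ctrl TAC, between 238 and 311 CPM, but lay between 245 and 274 CPM in KO TAC. The correlation with the mean of the 9 was lower for Sdhd (r = 0.868) than for Idh2 (r = 0.892), a description over the same 16 libraries. The ratio of Idh2 to Idh3a in length-scaled levels was 6.99 in Ctrl sham, 7.45 in KO sham, 7.21 in Ctrl TAC and 7.16 in KO TAC, with overlap in all 4 comparisons.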
